A study of Mus musculus with 12 samples.

Results

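The transcripts described here are those of the vessel wall in preparations of mouse brain microglia: 35 genes of 23845 in the tables, taken by name. They comprise 9 genes of junctions and barrier transport, 12 endothelial receptors and identity genes, 4 adhesion molecules of activated endothelium, and 10 genes of pericytes and smooth muscle cells. All 35 were found, and 34 passed the filter on low counts. Sele, the gene of E-selectin, did not pass it. The preparations were Percoll gradient isolates from brains of C57BL6/J mice, 3 to 4 months old, with 3 libraries per group and 1 animal per library. WT-LPS were wild-type mice injected with lipopolysaccharide (LPS, from the outer membrane of bacteria) 24 h earlier, and WT were wild-type mice without it. CPEB1-KO-LPS and CPEB1-KO were the corresponding groups of mice labelled as knockouts of CPEB1, an RNA-binding protein that regulates poly(A) tails and translation. The sources used here do not state how the knockout allele was built, or the dose and route of LPS.

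Brain capillaries are lined by endothelial cells joined by tight junctions, and these cells carry transporters that move selected molecules between blood and brain. Pericytes lie on the outside of capillaries within a shared basement membrane, and smooth muscle cells wrap arterioles. When endothelium meets bacterial products or cytokines, it displays selectins and immunoglobulin-type adhesion molecules on which leukocytes roll and then arrest.

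Vessel transcripts were a minor part of these libraries. The 21 endothelial genes without the adhesion molecules summed to between 130 and 409 TPM (transcripts per 1e+06 transcripts) in a library, and the 10 mural genes to between 48.7 and 104 TPM. The 8 microglia markers summed to between 2831 and 13962 TPM, and the 6 endothelial markers Cldn5, Cdh5, Pecam1, Tie1, Flt1 and Kdr were above 0 in every library. Other cell types were well represented. The 4 erythroid genes summed to between 6544 and 66991 TPM, above the microglia sum in 10 of the 12 libraries. The 12 neuron markers summed to more than the microglia markers in 4 libraries: WT-LPS replicate 1, CPEB1-KO-LPS replicates 1 and 2, and CPEB1-KO replicate 3. Total expected counts ranged from 5.02 to 13.5 M (1e+06 counts) per library. WT-LPS replicate 1 and WT replicate 1 held more neuron transcripts than the other libraries of their groups, at 6348 and 3999 TPM summed over 12 markers. CPEB1-KO-LPS replicate 3 held 61141 TPM of 4 erythroid genes, against 7051 and 11851 TPM in the other CPEB1-KO-LPS libraries. Cpeb1 mRNA was counted in all libraries, those labelled as knockouts included. It lay between 24.0 and 40.6 TPM in CPEB1-KO-LPS and between 24.1 and 45.1 TPM in WT-LPS, and between 17.6 and 26.4 TPM in CPEB1-KO and between 15.5 and 43.3 TPM in WT. Its log2 difference was -0.58 ± 0.31 (SE) in CPEB1-KO against WT, with an adjusted p of 0.334. A sum over the whole gene can miss a loss of some exons, so it does not check the genotype labels.

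**Figure D1:**
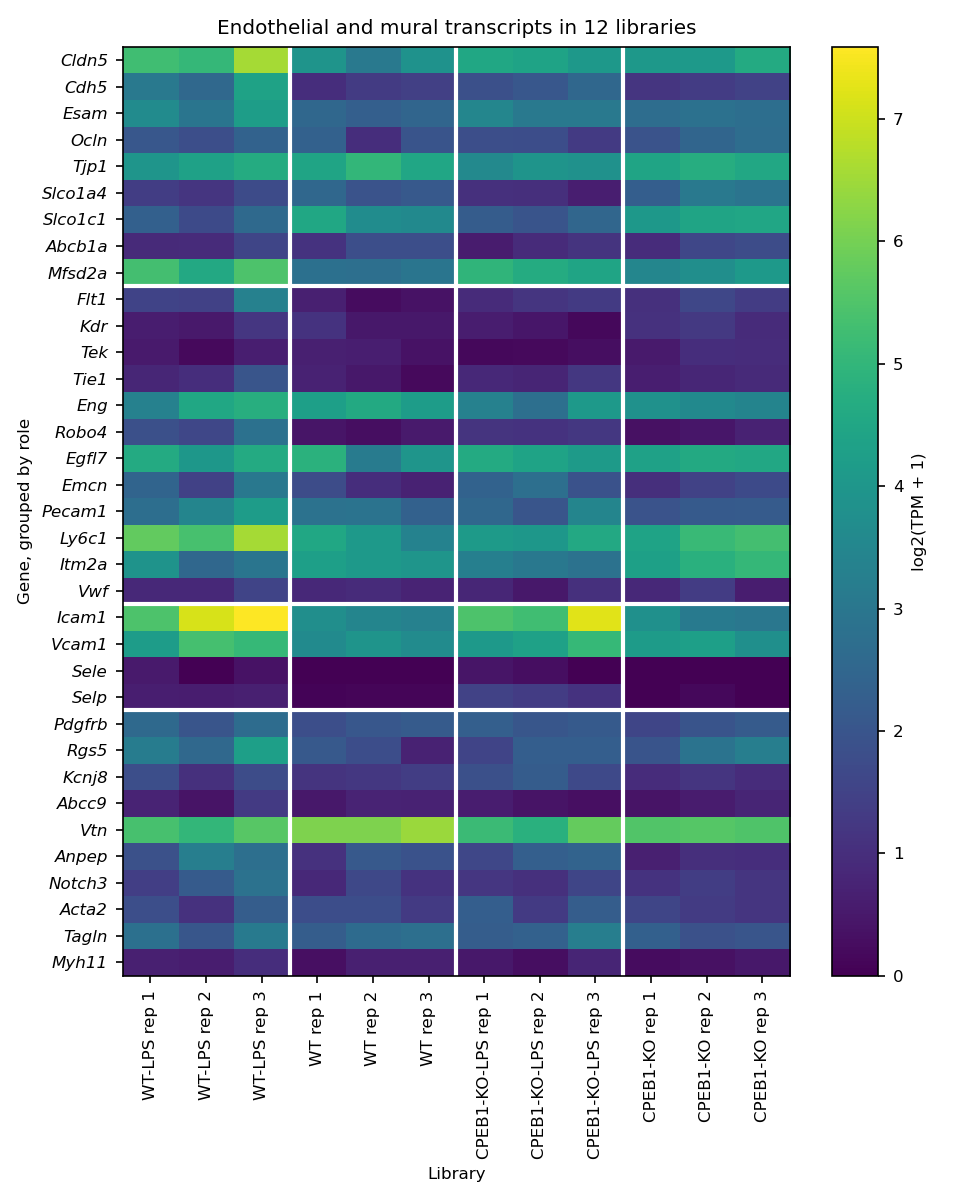
Level of each of the 35 genes, as log2(TPM + 1) by colour, in the 12 libraries (columns, by group); white lines part the groups and the roles. Icam1 is brighter in every LPS library than in every untreated one, Vtn is the highest mural gene, and WT-LPS replicate 3 holds the highest WT-LPS value of 29 of the 35 genes.

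After LPS, wild-type preparations had higher transcript levels of the junction genes Cldn5, Cdh5 and Esam and the transporter gene Mfsd2a. The receptor genes Flt1 and Robo4 and the adhesion genes Icam1 and Selp were also higher. Levels of Itm2a and of the organic anion transporter genes Slco1c1 and Slco1a4 were lower. Other genes of the same roles were not called higher, among them Ocln, Tjp1, Kdr, Tek and Eng. The calls of Esam, Selp and Itm2a were lost when particular libraries were left out. In WT-LPS against WT, 10 of the 34 tested genes rose and 4 fell (edgeR quasi-likelihood test, adjusted p under 0.05 over 15295 genes). These are 29.4% and 11.8% of the 34, beside 12.4% higher and 14.9% lower among all genes tested. The median log2 change was 0.17 over the 34 genes and -0.03 over all genes. In CPEB1-KO-LPS against CPEB1-KO, 4 rose and 4 fell, 11.8% each way, beside 4.1% and 2.12% of all genes tested. There the median log2 change was 0.15 over the 34 genes and 0.00 over all genes. Icam1, Mfsd2a and Selp rose in both genotypes, and Itm2a, Slco1a4 and Slco1c1 fell in both. The knockout calls of Icam1 and Mfsd2a were lost when particular libraries were left out. Only Slco1a4 and Slco1c1 kept both calls in every such fit. In bulk RNA, fewer cells of a type and less RNA per cell cannot be told apart.

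**Figure D2:**
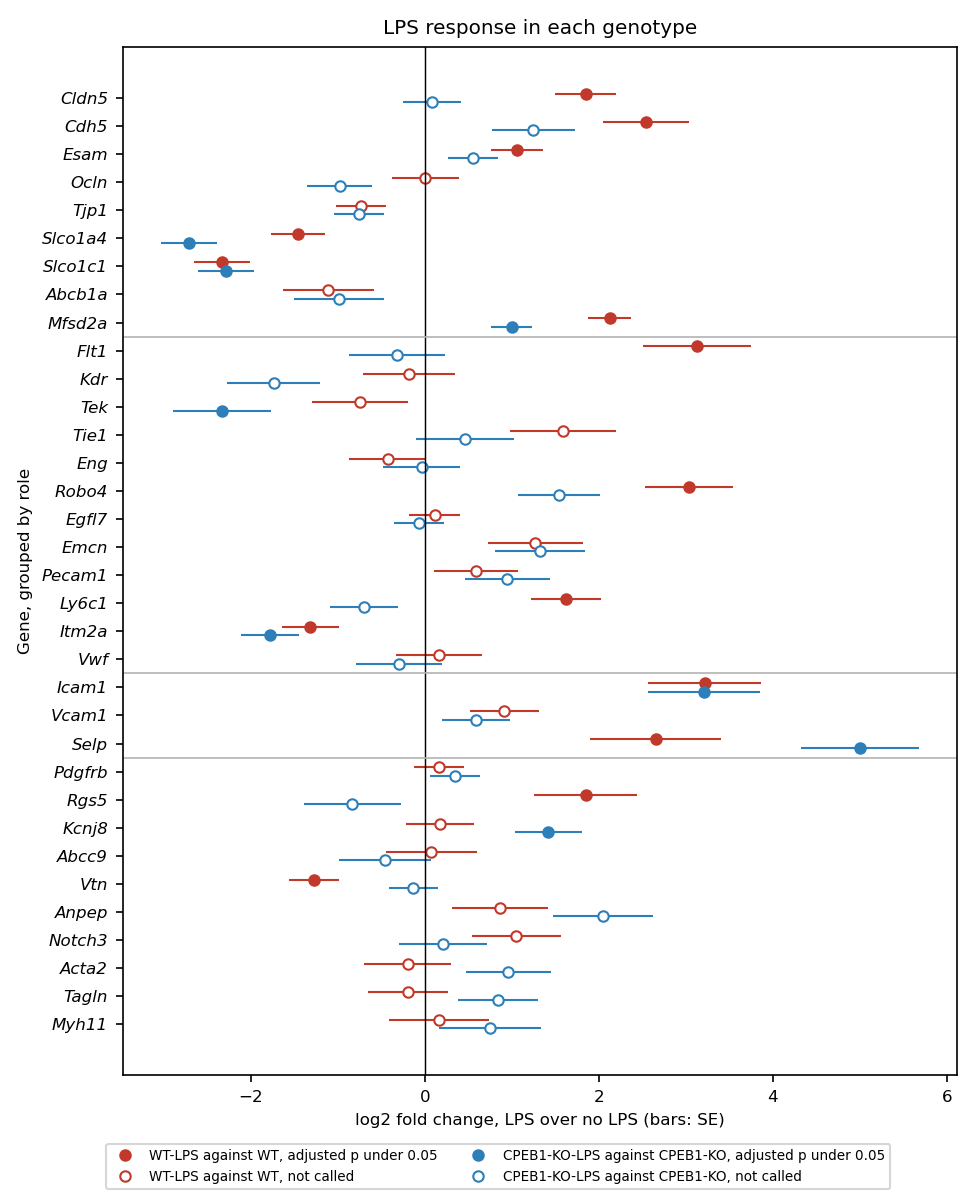
Log2 fold change after LPS (horizontal axis, bars are SE) of the 34 tested genes, from WT-LPS over WT in red and CPEB1-KO-LPS over CPEB1-KO in blue; filled points have an adjusted p under 0.05. Slco1c1 lies near -2.3 in both genotypes and Icam1 near 3.2 in both, while Flt1 lies at 3.13 in wild type and at -0.32 in the knockout.

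Among the 9 junction and barrier transport genes, 4 rose and 2 fell in WT-LPS (44.4% and 22.2%, beside 12.4% and 14.9% of all genes). In CPEB1-KO-LPS 1 rose and 2 fell (11.1% and 22.2%, beside 4.1% and 2.12%). Cldn5 encodes claudin-5, the main claudin of brain endothelial tight junctions (chromosome 16, 18776847 to 18778262, mm10). It had 37.4, 32.0 and 92.9 TPM in WT-LPS, against 14.1, 7.46 and 13.6 TPM in WT. All WT-LPS libraries lay above all WT libraries, and replicate 3 was the highest. The log2 change was 1.85 ± 0.35 (SE), with an adjusted p of 0.00253 in edgeR's test. In the knockout, Cldn5 had 21.9, 19.9 and 15.6 TPM in CPEB1-KO-LPS, against 15.6, 16.0 and 23.9 TPM in CPEB1-KO. Those groups overlapped, and the log2 change was 0.09 ± 0.33 with an adjusted p of 0.915.

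Cdh5, the gene of VE-cadherin at endothelial adherens junctions, had 7.45, 4.92 and 19.7 TPM in WT-LPS, against 0.99, 1.47 and 1.72 TPM in WT. It rose by a log2 change of 2.54 ± 0.50 (adjusted p 0.00302), and by 1.83 (adjusted p 0.0149) without WT-LPS replicate 3. In CPEB1-KO-LPS it had 2.62, 3.15 and 4.78 TPM, against 1.26, 1.57 and 1.85 TPM in CPEB1-KO. These groups did not overlap either, but the log2 change of 1.25 ± 0.47 had an adjusted p of 0.148 in edgeR's test. Esam, an adhesion molecule of endothelial cell contacts, had 11.6, 6.71 and 17.5 TPM in WT-LPS and 4.83, 3.90 and 4.51 TPM in WT, a log2 change of 1.06 ± 0.30 (adjusted p 0.0208). That call was lost without WT-LPS replicate 3 (adjusted p 0.099) and without WT replicate 3 (adjusted p 0.0539), and in the blocked fit of WT-LPS and WT alone (adjusted p 0.0559). Esam had 10.2, 7.40 and 7.39 TPM in CPEB1-KO-LPS, against 5.61, 6.15 and 5.69 TPM in CPEB1-KO, with a log2 change of 0.55 ± 0.29 and an adjusted p of 0.313. Thus the WT-LPS libraries lay above the WT libraries for all of these junction genes, with replicate 3 highest each time.

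The scaffold gene Tjp1 (ZO-1) and the tight-junction gene Ocln (occludin) showed no such increase. Tjp1, which is also made outside the vessel wall, averaged 19.4 ± 4.81 TPM in WT-LPS and 24.4 ± 6.20 TPM in WT (SD, n = 3 each), and 12.9 ± 1.73 TPM in CPEB1-KO-LPS and 22.7 ± 2.49 TPM in CPEB1-KO. Its log2 changes of -0.74 ± 0.29 and -0.76 ± 0.29 missed the threshold in each genotype (adjusted p 0.0694 and 0.145), but the change averaged over genotypes was -0.75 ± 0.20 with an adjusted p of 0.014. With the replicate number as a block over all 12 libraries the wild-type change passed (adjusted p 0.0486), but in the blocked fit of WT-LPS and WT alone it did not (adjusted p 0.0651). Ocln had a log2 change of 0.00 in wild type (adjusted p 0.995) and of -0.98 ± 0.37 in the knockout (adjusted p 0.151).

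The transporters went in different directions. Mfsd2a, which carries lysophospholipids with omega-3 fatty acids across brain endothelium (chromosome 4, 122946850 to 122961194), had 39.3, 22.8 and 43.2 TPM in WT-LPS, against 6.03, 5.81 and 6.79 TPM in WT. It rose by a log2 change of 2.12 ± 0.25 (adjusted p 0.000164). In CPEB1-KO-LPS it had 30.1, 24.7 and 20.7 TPM, against 10.2, 12.6 and 15.9 TPM in CPEB1-KO, a log2 change of 1.00 ± 0.23 (adjusted p 0.0235). The groups did not overlap in either genotype. The knockout call was lost in 4 of the 12 fits that left out a library, with adjusted p between 0.0538 and 0.114, namely without CPEB1-KO-LPS replicates 1 or 2 or CPEB1-KO replicates 1 or 2.

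Slco1c1 (Oatp1c1) carries thyroid hormone into the brain, and Slco1a4 (Oatp1a4) moves organic anions and drugs across the barrier; both lie on chromosome 6, from 141524354 to 141570177 and from 141805438 to 141856284. Slco1c1 had 4.01, 2.27 and 5.08 TPM in WT-LPS, against 21.7, 11.9 and 11.1 TPM in WT. It had 3.61, 2.93 and 4.70 TPM in CPEB1-KO-LPS, against 15.5, 20.4 and 21.7 TPM in CPEB1-KO. The log2 changes were -2.33 ± 0.32 (adjusted p 0.000502) and -2.29 ± 0.32 (adjusted p 0.000869), with every LPS library below every untreated library. Slco1a4 had 1.60, 1.26 and 2.30 TPM in WT-LPS, against 4.85, 2.88 and 3.38 TPM in WT. It had 1.06, 1.03 and 0.57 TPM in CPEB1-KO-LPS, against 3.86, 7.46 and 6.62 TPM in CPEB1-KO. It fell in both genotypes, by 1.46 ± 0.31 (adjusted p 0.00478) and by 2.72 ± 0.32 (adjusted p 0.000266) on the log2 scale, again with no overlap. Both genes kept their calls in all 12 fits without a library, but Slco1a4 lost its wild-type call with limma on log2(TPM + 0.1) (adjusted p 0.0561).

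Both transporters are also known from choroid plexus, and its 7 markers, among them Ttr, fell in WT-LPS (7 of 7) and CPEB1-KO-LPS (6 of 7). These markers summed to between 1126 and 2304 TPM in WT-LPS, against 4442 to 7787 TPM in WT, and to between 2524 and 3723 TPM in CPEB1-KO-LPS, against 7173 to 9171 TPM in CPEB1-KO. Their part in the falls of Slco1c1 and Slco1a4 was not tested. Abcb1a, the gene of a P-glycoprotein that pumps drugs back to blood, averaged over genotypes fell by 1.05 on the log2 scale (adjusted p 0.0456), but missed the threshold in each genotype (adjusted p 0.125 and 0.306). The averaged call was lost in 8 of the 12 fits without a library (adjusted p up to 0.129), and with RLE size factors, no filter on low counts and limma at either pseudocount. In wild type the adjusted p was 0.0408 with a replicate block over all 12 libraries and 0.08 in the blocked fit of WT-LPS and WT alone. The related gene Abcb1b could share some reads with Abcb1a, and had log2 changes of 0.26 in wild type and 0.68 in the knockout (adjusted p 0.602 and 0.305).

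**Figure D3:**
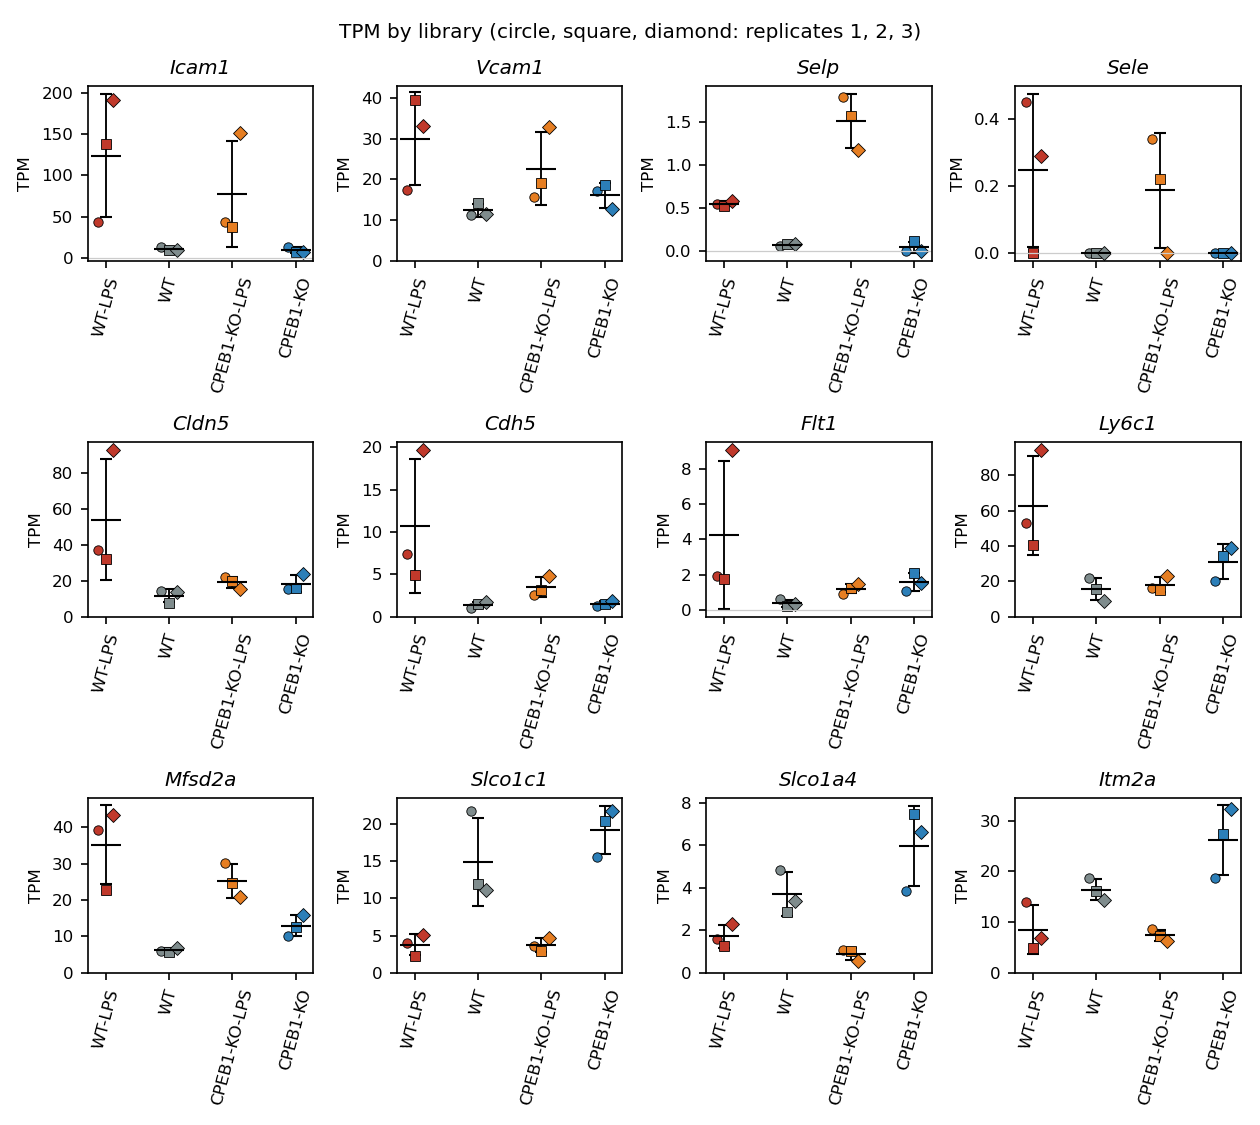
TPM of 12 genes in every library (points, with the mean as a dash and the SD as bars, n = 3), in WT-LPS, WT, CPEB1-KO-LPS and CPEB1-KO from left to right. Slco1c1, Slco1a4 and Itm2a are low in both LPS groups, while the high Cldn5, Cdh5 and Flt1 values stand in WT-LPS, with replicate 3 (diamond) on top.

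Of the 12 endothelial receptors and identity genes, 3 rose and 1 fell in WT-LPS (25% and 8.33%, beside 12.4% and 14.9% of all genes). In CPEB1-KO-LPS none rose and 2 fell (0% and 16.7%, beside 4.1% and 2.12%). The VEGF receptor gene Flt1 had 1.90, 1.75 and 9.09 TPM in WT-LPS, against 0.59, 0.20 and 0.30 TPM in WT, a log2 change of 3.13 ± 0.62 (adjusted p 0.00342). Without WT-LPS replicate 3 its log2 change was 2.02 (adjusted p 0.0121). In CPEB1-KO-LPS it had 0.91, 1.24 and 1.45 TPM, against 1.09, 2.08 and 1.53 TPM in CPEB1-KO, groups that overlapped (log2 change -0.32 ± 0.55, adjusted p 0.794). Robo4, a receptor that stabilises endothelium, had 2.63, 2.06 and 6.13 TPM in WT-LPS, against 0.36, 0.21 and 0.45 TPM in WT, a log2 change of 3.04 ± 0.50 (adjusted p 0.00131). It had 1.21, 1.18 and 1.36 TPM in CPEB1-KO-LPS, against 0.27, 0.38 and 0.67 TPM in CPEB1-KO; the groups did not overlap, and the log2 change was 1.54 ± 0.47 (adjusted p 0.0712).

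Ly6c1, a surface protein of brain endothelium and of some leukocytes, had 53.3, 40.8 and 94.6 TPM in WT-LPS, against 22.0, 15.8 and 9.21 TPM in WT. It rose by a log2 change of 1.62 ± 0.40 (adjusted p 0.0101), a call lost without WT-LPS replicate 3 (adjusted p 0.0526). In CPEB1-KO-LPS it had 16.6, 15.1 and 23.1 TPM, against 20.0, 34.3 and 39.2 TPM in CPEB1-KO, with an adjusted p of 0.34. Reads can be split between Ly6c1 and its near-identical neighbour Ly6c2, a monocyte gene, so its level is uncertain. Ly6c2 averaged 124 ± 72.5 TPM in WT-LPS and 12.6 ± 4.06 TPM in WT, and 30.3 ± 20.2 TPM in CPEB1-KO-LPS and 15.2 ± 9.39 TPM in CPEB1-KO (SD, n = 3 each). The 6 monocyte markers, Ly6c2 included, summed to between 244 and 494 TPM in WT-LPS, 41.4 and 63.0 TPM in WT, 102 and 157 TPM in CPEB1-KO-LPS, and 20.2 and 90.8 TPM in CPEB1-KO, and their part in the Ly6c1 values was not tested.

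Itm2a, a membrane protein enriched in brain endothelium, went the other way. It had 13.9, 4.83 and 6.76 TPM in WT-LPS, against 18.6, 16.0 and 14.4 TPM in WT, and 8.60, 7.22 and 6.32 TPM in CPEB1-KO-LPS, against 18.8, 27.3 and 32.3 TPM in CPEB1-KO. It fell by 1.32 ± 0.33 (adjusted p 0.0114) and by 1.78 ± 0.33 (adjusted p 0.00656) on the log2 scale; the wild-type call was lost without WT-LPS replicate 3 (adjusted p 0.0532). Tek, the angiopoietin receptor Tie2, had 0.12, 0.14 and 0.22 TPM in CPEB1-KO-LPS, against 0.46, 0.99 and 0.97 TPM in CPEB1-KO. Its log2 change there was -2.33 ± 0.57 (adjusted p 0.0278), a call lost in 4 of the 12 fits without a library (highest adjusted p 0.117). Those libraries were CPEB1-KO-LPS replicates 1 and 2 and CPEB1-KO replicates 2 and 3. In wild type Tek had 0.46, 0.14 and 0.54 TPM in WT-LPS, against 0.59, 0.56 and 0.30 TPM in WT, groups that overlapped (adjusted p 0.325). These are low levels, under 1 TPM in every library.

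The other receptor and identity genes did not pass in either genotype. Kdr, the main VEGF receptor of endothelium, had a log2 change of -0.18 in wild type (adjusted p 0.822) and of -1.74 ± 0.53 in the knockout (adjusted p 0.0718). Tie1, an endothelial receptor related to Tek, had a log2 change of 1.59 ± 0.61 in wild type (adjusted p 0.0676), and passed there without WT-LPS replicate 1 (adjusted p 0.0315). Emcn, an endothelial sialomucin, passed when averaged over genotypes (log2 change 1.30 ± 0.38, adjusted p 0.02), but not without WT-LPS replicate 3 (adjusted p 0.0596). In wild type Emcn had 1.27 (adjusted p 0.0973), and passed without WT-LPS replicate 2 (adjusted p 0.0493) or WT replicate 1 (1.91, adjusted p 0.0495). Pecam1 and Eng are also made by macrophages. Pecam1 averaged 11.1 ± 5.97 TPM in WT-LPS and 5.60 ± 1.26 TPM in WT, and 5.91 ± 3.54 TPM in CPEB1-KO-LPS and 3.26 ± 0.372 TPM in CPEB1-KO. Eng averaged 19.0 ± 8.78 TPM in WT-LPS and 19.7 ± 3.23 TPM in WT, and 10.4 ± 5.28 TPM in CPEB1-KO-LPS and 11.3 ± 1.85 TPM in CPEB1-KO. Egfl7, a secreted protein of endothelium whose exons overlap those of Agpat2, had log2 changes of 0.11 and -0.07. Vwf, the clotting factor of endothelium and platelets, had 0.16 and -0.30.

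Levels were also described relative to a mean of 5 endothelial genes, of which Cdh5, Robo4 and Esam were themselves called higher in WT-LPS. The mean log2(TPM + 1) of Cdh5, Tie1, Robo4, Esam and Egfl7 was 2.81, 2.43 and 3.61 in WT-LPS and 1.91, 1.504 and 1.72 in WT, and 2.40, 2.29 and 2.44 in CPEB1-KO-LPS and 1.85, 2.02 and 2.09 in CPEB1-KO. This mean was higher in every LPS library than in every untreated library. Relative to it, Slco1c1 stood at -0.74 ± 0.26 in WT-LPS and 2.22 ± 0.36 in WT, and at -0.14 ± 0.20 in CPEB1-KO-LPS and 2.34 ± 0.12 in CPEB1-KO (log2 difference, SD, n = 3 each). Mfsd2a stood at 2.17 ± 0.33 in WT-LPS and 1.14 ± 0.20 in WT, and at 2.32 ± 0.29 in CPEB1-KO-LPS and 1.79 ± 0.18 in CPEB1-KO. Cldn5 stood at 2.67 ± 0.25 in WT-LPS and 1.91 ± 0.30 in WT, and at 1.95 ± 0.29 in CPEB1-KO-LPS and 2.27 ± 0.25 in CPEB1-KO.

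The adhesion molecules had the largest median change of the 4 roles, with log2 medians of 2.65 in WT-LPS and 3.21 in CPEB1-KO-LPS over the 3 tested genes. Of these 3, Icam1 and Selp rose in both genotypes, beside 12.4% of all genes higher in wild type and 4.1% in the knockout. Vcam1 did not pass. The DNA upstream of Icam1, Sele and Selp is shown because their promoters are classic targets of NF-kB, the transcription factor activated by LPS and cytokines. Each line gives the 250 bases before the first listed start site in RefSeq (GRCm38.p6, the mm10 build, plus strand), 5′ to 3′. For Sele this start site lies inside the listed span of the gene, 164039614 to 164058487. Capitals mark matches to GGNNNTTCC, a loose form of the NF-kB site, on either strand. The windows are chr9:21015690-21015939 for Icam1, chr1:164047984-164048233 for Sele and chr1:164115014-164115263 for Selp.
Icam1: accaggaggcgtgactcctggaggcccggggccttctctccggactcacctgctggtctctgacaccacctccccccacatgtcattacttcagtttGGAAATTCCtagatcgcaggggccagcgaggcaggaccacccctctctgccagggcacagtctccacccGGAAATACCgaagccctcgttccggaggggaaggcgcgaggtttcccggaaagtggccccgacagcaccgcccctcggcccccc
Sele: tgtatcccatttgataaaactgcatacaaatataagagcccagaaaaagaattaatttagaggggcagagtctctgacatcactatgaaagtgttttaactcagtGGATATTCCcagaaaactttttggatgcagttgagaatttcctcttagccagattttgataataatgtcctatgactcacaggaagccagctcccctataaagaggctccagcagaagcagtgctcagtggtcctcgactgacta
Selp: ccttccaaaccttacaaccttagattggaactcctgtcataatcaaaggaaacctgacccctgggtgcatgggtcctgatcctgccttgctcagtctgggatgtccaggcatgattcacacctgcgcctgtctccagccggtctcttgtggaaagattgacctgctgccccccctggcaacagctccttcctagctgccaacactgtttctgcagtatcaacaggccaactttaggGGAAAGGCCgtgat
In windows of 300 bases that also took in 50 bases after the start, Icam1 had 2 matches and Sele and Selp had 1 each. Their first bases lay 153 and 84 bases before the start in Icam1, 145 in Sele and 14 in Selp. The motif is common: 6 of the 27 members with a RefSeq promoter (22.2%) and 4972 of 27025 promoters (18.4%) held it in a window of that length. A match describes the letters and is no evidence of binding.

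Icam1, the ligand of leukocyte LFA-1, had 43.5, 138 and 191 TPM in WT-LPS, against 12.5, 9.95 and 9.01 TPM in WT. It had 43.0, 37.0 and 152 TPM in CPEB1-KO-LPS, against 13.1, 7.55 and 7.07 TPM in CPEB1-KO. Every LPS library lay above every untreated library, and the LPS libraries spread widely. The log2 change was 3.21 ± 0.65 in both genotypes (adjusted p 0.00367 in wild type and 0.0103 in the knockout). The knockout value was 2.04 (adjusted p 0.0258) without CPEB1-KO-LPS replicate 3, and its call was lost without CPEB1-KO replicate 2 (adjusted p 0.0619) or 3 (adjusted p 0.0593). Icam1 is also made by activated microglia. The 8 microglia markers summed to 2831, 13962 and 9294 TPM in the WT-LPS libraries in the same order, and to 4574, 2948 and 9574 TPM in CPEB1-KO-LPS, so the LPS libraries low in Icam1 were also low in microglia markers. Untreated libraries had 9470 to 11666 TPM in WT and 4669 to 7680 TPM in CPEB1-KO, and the part of these markers in the Icam1 values was not tested.

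Selp encodes P-selectin, on which leukocytes roll. It had 0 to 3 counts in each library without LPS. Its level was 0.54, 0.52 and 0.58 TPM in WT-LPS, against 0.05, 0.08 and 0.08 TPM in WT. It had 1.80, 1.57 and 1.18 TPM in CPEB1-KO-LPS, against 0, 0.11 and 0 TPM in CPEB1-KO. In each genotype the LPS libraries lay above the untreated ones, and all CPEB1-KO-LPS libraries lay above all WT-LPS libraries. Summed counts were 36 in WT-LPS and 3 in WT, a depth-scaled ratio of 6.79 (95% exact counting interval 2.15 to 34.5), and 110 in CPEB1-KO-LPS and 3 in CPEB1-KO, a ratio of 35.9 (11.97 to 177). All 3 counts in CPEB1-KO came from replicate 2. The fitted log2 change in the knockout was 5.002, and 7.94 without that library, where CPEB1-KO is at 0 counts. The intervals cover counting error only. The adjusted p values were 0.0206 in wild type and 0.000768 in the knockout; the wild-type call was lost without WT replicate 1 (adjusted p 0.0756) or 3 (adjusted p 0.0506). Platelets also hold Selp mRNA, and the 9 platelet markers summed to between 37.9 and 47.2 TPM in WT-LPS, 80.8 and 156 TPM in WT, 38.1 and 59.4 TPM in CPEB1-KO-LPS, and 41.8 and 53.0 TPM in CPEB1-KO. Of the 7 tested platelet markers, 0 rose and 4 fell in WT-LPS, beside 12.4% and 14.9% of all genes. In CPEB1-KO-LPS 0 rose and 0 fell, beside 4.1% and 2.12% of all genes. The part of platelets in the Selp values was not tested.

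Sele, the gene of E-selectin, was found only after LPS and at few counts. It had 0.45, 0 and 0.29 TPM in WT-LPS and 0.34, 0.22 and 0 TPM in CPEB1-KO-LPS, and 0 in all 6 untreated libraries. Summed counts were 14 in WT-LPS against 0 in WT, and 12 in CPEB1-KO-LPS against 0 in CPEB1-KO. With the untreated group set to 3 counts, the depth-scaled ratios were 2.64 and 3.92. They take no account of counting error in the LPS groups or of spread between animals. The groups overlapped at 0 in both genotypes, and Sele was not tested in the fit with the filter on low counts. Vcam1, the ligand of the integrin VLA-4, had 17.4, 39.6 and 33.0 TPM in WT-LPS, against 11.3, 14.3 and 11.6 TPM in WT, and 15.8, 19.2 and 32.9 TPM in CPEB1-KO-LPS, against 17.1, 18.5 and 12.6 TPM in CPEB1-KO. Its log2 changes of 0.91 ± 0.39 and 0.59 ± 0.39 did not pass (adjusted p 0.0997 and 0.435); the wild-type change passed without WT-LPS replicate 1 (adjusted p 0.0319) or CPEB1-KO-LPS replicate 3 (adjusted p 0.0474). In wild type the groups did not overlap, and Vcam1 passed when only WT-LPS and WT were fitted with the replicate number as a block (adjusted p 0.0237), a fit added after the data were seen.

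**Figure D4:**
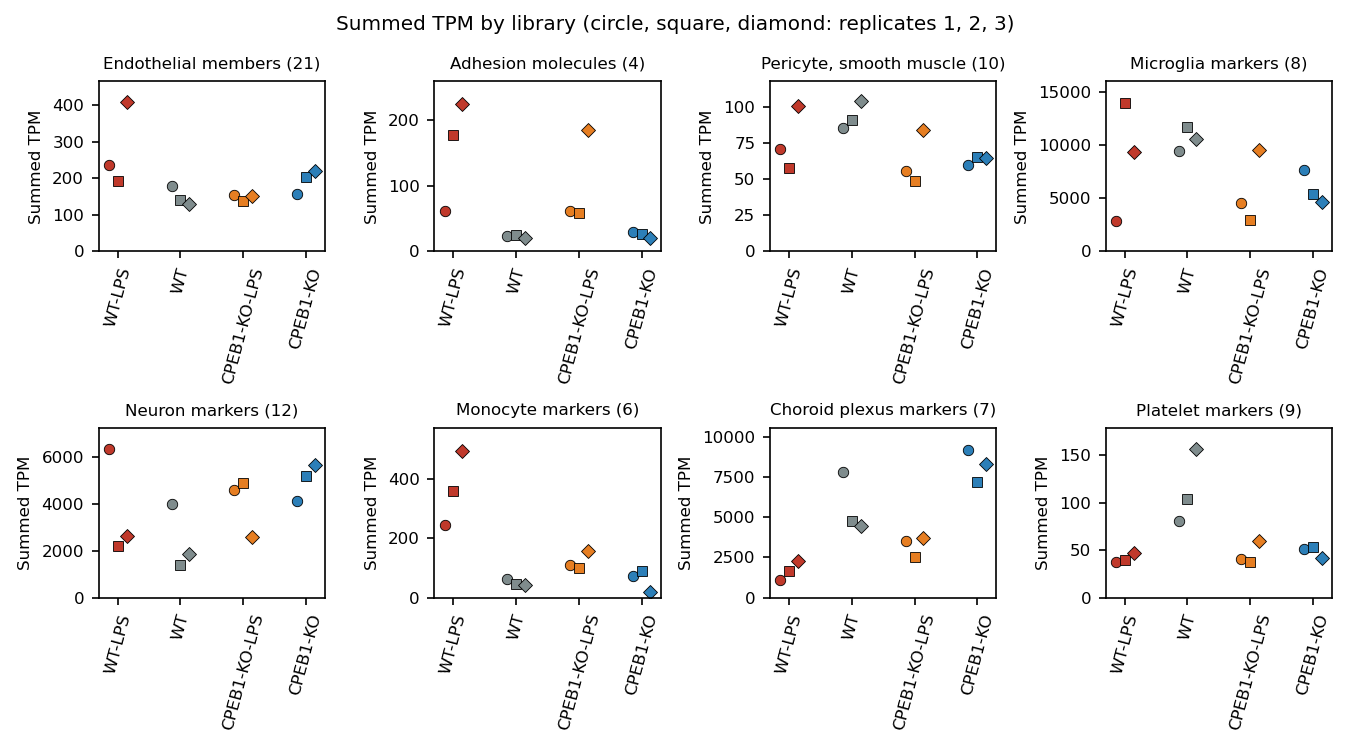
Summed TPM by library of the endothelial genes without adhesion molecules, the adhesion molecules, the mural genes and 5 lists of cell type markers, in WT-LPS, WT, CPEB1-KO-LPS and CPEB1-KO from left to right. WT-LPS replicate 3 (diamond) has the highest endothelial sum at 409 TPM, the microglia sum of the WT-LPS libraries ranges from 2831 to 13962 TPM, and the choroid plexus sum is lower in every LPS library than in every untreated one.

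Of the 10 pericyte and smooth muscle genes, 1 rose and 1 fell in WT-LPS (10% each, beside 12.4% and 14.9% of all genes). In CPEB1-KO-LPS 1 rose and 0 fell (10% and 0%, beside 4.1% and 2.12%). In wild type these genes were thus called no more often than genes in general. Their sum was between 57.3 and 101 TPM in WT-LPS and between 85.1 and 104 TPM in WT, and between 48.7 and 83.7 TPM in CPEB1-KO-LPS and between 59.5 and 65.4 TPM in CPEB1-KO. Vtn, the gene of vitronectin, a matrix protein that brain pericytes make strongly, was the most abundant per length. It had 40.6, 31.2 and 48.3 TPM in WT-LPS, against 69.3, 69.1 and 85.8 TPM in WT, and 35.1, 27.1 and 54.7 TPM in CPEB1-KO-LPS, against 45.2, 47.1 and 44.2 TPM in CPEB1-KO. It fell in wild type by 1.27 ± 0.29 on the log2 scale (adjusted p 0.00672) with no overlap; in the knockout the groups overlapped (-0.13 ± 0.29, adjusted p 0.841).

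Rgs5, a pericyte regulator of G-protein signalling, had 8.15, 4.96 and 18.4 TPM in WT-LPS, against 3.38, 2.47 and 0.66 TPM in WT, a log2 change of 1.85 ± 0.59 (adjusted p 0.0342). The call was lost without WT-LPS replicate 3 (adjusted p 0.162), WT replicate 2 (adjusted p 0.0511) or WT replicate 3 (adjusted p 0.108), and with a replicate block over all 12 libraries (adjusted p 0.0631), but held in the blocked fit of WT-LPS and WT alone (adjusted p 0.0442). In CPEB1-KO-LPS it had 1.93, 3.85 and 3.80 TPM, against 2.94, 6.49 and 8.55 TPM in CPEB1-KO (adjusted p 0.443). Kcnj8 and Abcc9, neighbours on chromosome 6 (142564837 to 142571614 and 142587862 to 142702766), encode the pore and the regulatory subunit of the pericyte potassium channel closed by ATP. Kcnj8 had 2.63, 3.58 and 2.18 TPM in CPEB1-KO-LPS, against 0.97, 1.24 and 0.97 TPM in CPEB1-KO, a log2 change of 1.42 ± 0.38 (adjusted p 0.0449), with no overlap. It had 2.55, 1.09 and 2.40 TPM in WT-LPS, against 1.20, 1.36 and 1.60 TPM in WT (adjusted p 0.77). The knockout call was lost in 7 of the 12 fits without a library, up to an adjusted p of 0.185: those without any of the 6 CPEB1-KO-LPS and CPEB1-KO libraries, and that without WT-LPS replicate 3. Abcc9 had log2 changes of 0.07 and -0.46, and neither passed.

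Anpep, the peptidase CD13 of pericytes and of myeloid cells, averaged 5.65 ± 2.93 TPM in WT-LPS and 2.42 ± 1.17 TPM in WT, and 3.45 ± 1.23 TPM in CPEB1-KO-LPS and 0.870 ± 0.243 TPM in CPEB1-KO. Its change passed when averaged over genotypes (log2 change 1.45 ± 0.40, adjusted p 0.0151). In the knockout alone its log2 change of 2.05 had an adjusted p of 0.0533, and passed without WT-LPS replicate 1 or 2, WT replicate 1 or CPEB1-KO-LPS replicate 1 (lowest adjusted p 0.034). Pdgfrb, the receptor that recruits pericytes, had log2 changes of 0.16 and 0.35. The contractile genes of smooth muscle, Acta2, Tagln and Myh11, had log2 changes of -0.20, -0.19 and 0.16 in wild type and 0.96, 0.84 and 0.74 in the knockout, and none passed. Notch3, a receptor of mural cells, had 1.05 ± 0.51 in wild type (adjusted p 0.14) and 0.21 in the knockout. The wild-type change passed without WT replicate 2 (1.74, adjusted p 0.0425) and without WT-LPS replicate 1 (1.49, adjusted p 0.0383).

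Averaged over genotypes, LPS was called for 18 of the 34 genes, 11 higher and 7 lower (32.4% and 20.6%, beside 14.6% and 14.8% of all genes tested). Those not yet named as passing there include Tek (-1.54 ± 0.40), Esam (0.80 ± 0.21), Flt1 (1.40 ± 0.41) and Kcnj8 (0.79, adjusted p 0.0438). The Kcnj8 call was lost in 10 of the 12 fits without a library (adjusted p up to 0.102), and with the replicate block (adjusted p 0.0712). That of Flt1 was lost without WT-LPS replicate 3 (adjusted p 0.0506) and with limma on log2(TPM + 1) (adjusted p 0.073).

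No member passed an adjusted p of 0.05 in edgeR's test between genotypes, or for a difference of its LPS response between them. In CPEB1-KO-LPS against WT-LPS, where 0.00654% of all genes were called, 9 of the 34 (26.5%) had an unadjusted p under 0.05, beside 10.8% of all genes with such a p. Of the 34, 27 had a negative log2 difference, with a median log2 difference of -0.54 beside 0.06 over all genes. The smallest adjusted p was that of Ly6c1 and Cldn5 (0.361), with log2 differences of -1.67 ± 0.39 and -1.41 ± 0.34. For both genes, all 3 CPEB1-KO-LPS libraries lay below all 3 WT-LPS libraries, and DESeq2 called these 2 genes (adjusted p 0.0184 and 0.0237), beside 0.416% of all genes by that tool. Selp went the other way, at 1.51 ± 0.49 (adjusted p 0.42). WT-LPS replicate 3, highest of its group for 29 of the 35 genes, enters all of these differences.

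For the LPS response in CPEB1-KO minus that in WT, 0.00654% of all genes were called. An unadjusted p under 0.05 was found for 9 of the 34 (26.5%), beside 15.5% of all genes. The smallest adjusted p was 0.195, shared by Flt1 (-3.45 ± 0.83), Ly6c1 (-2.32 ± 0.56) and Cldn5 (-1.76 ± 0.48), and DESeq2 called these 3 genes, beside 1.46% of all genes. The genes that passed in wild type alone, such as Cdh5 and Robo4, are thus not shown to respond differently in the knockout: their differences had adjusted p of 0.372 and 0.321. In CPEB1-KO against WT, 0.0327% of all genes were called. There 6 of the 34 (17.6%) had an unadjusted p under 0.05, a share near the 18.6% of all genes. Vtn had the smallest p, at -1.05 ± 0.29 (adjusted p 0.155), followed by Anpep at -1.83 ± 0.59 (adjusted p 0.184), and DESeq2 called these 2, beside 2.56% of all genes. Averaged over treatments, 29 of the 34 genes had a negative log2 difference (CPEB1-KO minus WT), with a median log2 difference of -0.34 beside 0.01 over all genes; none passed, and 0.124% of all genes were called. An unadjusted p under 0.05 was found for 9 of the 34 (26.5%), beside 13.4% of all genes.

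These genotype counts depended on the 3 libraries that stand apart in neuron or erythroid transcripts. They differ in microglia transcripts too. CPEB1-KO-LPS replicate 3 had the highest microglia sum (9574 TPM) and the lowest neuron sum (2616 TPM) of its group. WT-LPS replicate 1 had the lowest microglia sum of its group (2831 TPM). Leaving out WT-LPS replicate 1, WT replicate 1 and CPEB1-KO-LPS replicate 3 together leaves 2 libraries in those groups. Then 12 members were lower in CPEB1-KO-LPS than in WT-LPS, beside 11.9% lower among all genes, and 7 were lower in CPEB1-KO than in WT, beside 14.5%. The LPS response was smaller or more negative in the knockout for 4 members, beside 3.7% of all genes, and averaged over treatments 12 members were lower in the knockout, beside 17.7%. None was higher in these comparisons. Leaving them out also removed an overlap of the LPS groups in other cell types. With all libraries, neuron markers summed to between 2616 and 4921 TPM in CPEB1-KO-LPS and between 2218 and 6348 TPM in WT-LPS. Microglia markers summed to between 2948 and 9574 TPM and between 2831 and 13962 TPM. The untreated groups did not overlap in either sum, with or without these libraries. Among the libraries that remained, the genotypes did not overlap in either sum. Neuron markers summed to 4597 and 4921 TPM in CPEB1-KO-LPS, against 2218 and 2626 TPM in WT-LPS, and to between 4153 and 5693 TPM in CPEB1-KO, against 1386 and 1871 TPM in WT. Microglia markers summed to 4574 and 2948 TPM in CPEB1-KO-LPS, against 13962 and 9294 TPM in WT-LPS, and to between 4669 and 7680 TPM in CPEB1-KO, against 11666 and 10530 TPM in WT. Their part in these calls was not tested. Cldn5 then had a difference of -1.71 (adjusted p 0.0158) and Cdh5 of -2.20 (adjusted p 0.012) between CPEB1-KO-LPS and WT-LPS. Flt1, Ly6c1, Cldn5 and Icam1 were the 4 whose LPS response differed, with Icam1 at -1.68 (adjusted p 0.0364). In CPEB1-KO against WT the 7 were Anpep, Eng, Myh11, Pecam1, Tagln, Tjp1 and Vtn. The LPS calls changed less: without these libraries 16 members passed in wild type (36.7% of all genes did), with Selp lost (adjusted p 0.0817), and 10 in the knockout (8.82% of all genes did).

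Genes that work with the vessel wall, in 7 further lists, were counted in the same fit. Of all genes tested, 12.4% rose and 14.9% fell in wild type, and 4.1% rose and 2.12% fell in the knockout. Some counts below lie near those shares, such as 1 of 10 vascular growth factors higher in wild type. Genes were named for their small p among those called in WT-LPS, so they do not describe their lists. Among 18 other barrier transporters and junction genes, 6 rose and 1 fell in WT-LPS, and 2 rose and 3 fell in CPEB1-KO-LPS. The glucose transporter Slc2a1 rose by a log2 change of 1.37 ± 0.21 in wild type and had 0.56 in the knockout (adjusted p 0.145). The cationic amino acid transporter Slc7a1 rose in wild type (1.85 ± 0.35), and the anion transporter Slc22a8 fell in both, by 3.19 ± 0.45 and 2.04 ± 0.41. Of 15 genes of endothelial activation, coagulation and caveolae, 6 rose and 1 fell in wild type and 5 rose in the knockout. They include Lrg1, a secreted angiogenic glycoprotein (3.41 ± 0.44 and 3.33 ± 0.41), and Ch25h, the cholesterol 25-hydroxylase gene that macrophages also induce (6.96 ± 0.96 and 5.85 ± 0.81).

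Among 10 leukocyte ligands of the adhesion molecules, 2 rose and 1 fell in wild type and 1 rose in the knockout. Cd44, a hyaluronan receptor, rose in both (2.69 ± 0.45 and 2.19 ± 0.44), and Glg1, an E-selectin ligand, rose in wild type (1.04 ± 0.35). Selplg, the P-selectin ligand that microglia also express, fell in wild type by 2.52 ± 0.67. Among 10 vascular growth factors, 1 rose and 3 fell in wild type and 1 rose and 1 fell in the knockout: Angptl4 rose (2.36 ± 0.39 and 3.08 ± 0.41), Vegfb fell (by 0.89 ± 0.18 and 0.71 ± 0.18), and Pdgfb, which endothelium uses to hold pericytes, fell in wild type (by 1.45 ± 0.34). Of 11 tested endothelial transcription factors, Klf4 (2.76 ± 0.76) and Gata2 (1.14 ± 0.40) rose in wild type and none passed in the knockout. Of 11 basement membrane genes, 3 rose in wild type, Lamc1 (1.19 ± 0.19), Col4a1 (1.23 ± 0.39) and Lama5 (0.89 ± 0.29), and Lamc1 alone passed in the knockout (0.94 ± 0.19). Of 17 other tested mural genes, 1 rose and 4 fell in wild type, and 1 fell in the knockout. The pericyte proteoglycan Cspg4, also made by oligodendrocyte precursors, fell in both (by 1.21 ± 0.33 and 1.76 ± 0.33), and the pericyte genes Atp13a5 and Higd1b fell in wild type (by 1.65 ± 0.45 and 1.94 ± 0.57).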

How the data were processed

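RNA-seq of 12 mouse microglial preparations was available as 2 tables of 23845 genes. The first holds expected counts per gene, deposited without normalization between libraries; the second holds TPM that the authors computed within each library. Per the submitters' processing notes, RSEM, cutadapt and mm10 were used; the sources used here give no versions, aligner or strandedness. Without strand, reads of overlapping genes cannot be told apart; Egfl7, Eng, Tagln, Icam1, Vcam1, Selp, Notch3, Abcc9 and Abcb1a overlap exons of other genes in GENCODE M21.

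Expected counts were rounded and fitted with edgeR 4.0.16 (R 4.3.3): filterByExpr by group, TMM, and a quasi-likelihood model with 4 group means (15295 genes, 8 residual degrees of freedom). Tests were two-sided with Benjamini-Hochberg adjustment over all genes, at 0.05. SE is the absolute log2 change over the square root of F. The procedure was tested on simulated counts. A fold against 0 counts used 3 counts over the group. Depth was 5.02 to 13.5 M (1e+06) counts. P-values measure the spread between single animals.

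The members, gene lists and alternatives were chosen with earlier results of these data known. Values in every library are given for the adhesion molecules and for members called in WT-LPS against WT, CPEB1-KO-LPS against CPEB1-KO or a pairwise genotype comparison; from each further list, up to 3 members with the smallest p among those called in WT-LPS against WT are named, except for a gene that is not reported here. Promoters, names and positions are from RefSeq (GRCm38.p6), which gave a promoter for 27 of the 35 members. Cavin1 is listed under its older symbol. Alternatives were other size factors, DESeq2 1.42.0, other filters, limma 3.58.1 on log2(TPM + 1) and log2(TPM + 0.1), a 1.5-fold threshold, fewer groups in the fit, a replicate block, and left-out libraries. WT-LPS and WT libraries of the same number deviated together over genes (correlations 0.378, 0.149 and 0.176). By a rule of 0.1 for every pair, those numbers were taken as pairs in an added blocked fit of these groups. The fit behind the main calls used no block, since the labels do not say what a number shares.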

Additional observations from a re-analysis of the deposited data

How the results depend on the processing

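Counts of called members in WT-LPS against WT (14) lay between 10 and 17 when a library was left out, 10 being without WT-LPS replicate 3, and 9 members were called in all 12 such fits. With the replicate block over all 12 libraries 15 were called: Tjp1 (adjusted p 0.0486) and Abcb1a (0.0408) passed and Rgs5 was lost. With only WT-LPS and WT in the blocked fit 14 passed, with Vcam1 gained and Esam lost (0.0559). In CPEB1-KO-LPS against CPEB1-KO (8), 5 passed with a 1.5-fold threshold and with limma at either pseudocount, and 4 to 9 without a library. Of the members, 4 held in all 12. The limma fits tested 31 members, beside 34 in the main fit, and did not test Tek, which was under 1 TPM in every library. There the numbers gave correlations of -0.029, 0.088 and -0.138 and so mark no pairs; the replicate block left 8, with Tek (0.0548) and Kcnj8 (0.0846) lost and Robo4 (0.0326) and Anpep (0.00892) gained. Of the 0 members called in CPEB1-KO against WT, 2 passed with DESeq2, 7 without the 3 libraries that stand apart, and 0 to 2 without a library. For CPEB1-KO-LPS against WT-LPS (0) these were 2, 12 and 0. For the difference of LPS responses (0) they were 3, 4 and 0 to 1. For CPEB1-KO averaged over treatments (0), 12 passed without the 3 libraries and 0 to 2 without a library. For LPS averaged over genotypes (18), 8 passed with the 1.5-fold threshold and 17 with the block. Selp lost its wild-type call with limma on log2(TPM + 1) (adjusted p 0.0591), as did Mfsd2a (0.0633) and Kcnj8 (0.0678) in the knockout. In these alternatives no called change turned its sign; the causes of the differences were not tested. With limma on log2(TPM + 1) the median gene shifted by 0.29 (log2) in WT-LPS against WT, beside -0.03 in edgeR's fit. In CPEB1-KO against WT it shifted by 0.27, beside -0.03. For the difference of LPS responses it shifted by -0.31, beside 0.05. The TPM values given for WT carry this shift when set against other groups. Tek, Sele and Selp rest on few counts, and differences that did not pass are not shown to be absent at these depths.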
